A study of Homo sapiens with 8 samples.

Results

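The 10 genes described here are Sprouty genes (SPRY1, SPRY2, SPRY4), SPRED genes (SPRED1, SPRED2) and MAPK phosphatase genes (DUSP1, DUSP4, DUSP5, DUSP6, DUSP10). All encode inhibitors of MAP kinase signalling, and they were listed together as ERK feedback genes. They were taken by symbol from a table of 19775 genes, and all 10 were measured. Each gene was read on its main probe set, the brightest of those that the platform annotation gives to that gene alone, and the 10 genes had 22 such probe sets. The study used HuCCT1, an established human cholangiocarcinoma cell line. In 4 samples the cells carried a hairpin labelled YAP shRNA 1, directed at the Hippo pathway coactivator YAP1, and in 4 samples a control shRNA, described as scrambled. Cells of both groups received doxycycline at 100 ng/ml for 3 days before they were seeded, which switches the hairpins on, so the groups share the drug and differ in the hairpin. Only 1 hairpin against YAP1 and 1 cell line were used, and no array without doxycycline was analysed here. The labels do not say whether replicates were separate cultures, so the p-values cover the variation among these arrays only, and it may be technical.

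Growth factor receptors pass their signal through RAS, RAF and MEK to the kinase ERK, and ERK then raises the transcription of genes whose products restrain the same route. Sprouty and SPRED proteins act near the membrane: Sprouty proteins interfere with the activation of RAS and RAF downstream of receptors, and SPRED proteins bring the RAS inactivator neurofibromin to the membrane. The dual-specificity phosphatases remove phosphate from the MAP kinases themselves, DUSP5 and DUSP6 with a preference for ERK, DUSP10 for p38 and JNK, and DUSP1 and DUSP4 with a wider range. In epithelial and biliary cancers, where RAS and receptor signalling is often active, the levels of some of these transcripts are widely used as a readout of ERK activity.

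The values are on a log2 scale, and array medians lay between 6.22 and 6.25. YAP1 itself stood at 10.40, 10.55, 10.51 and 10.54 on the YAP shRNA arrays, against 12.59, 12.61, 12.77 and 12.60 on the control shRNA arrays, a 4.41-fold fall (limma adjusted p = 6.15e-07). Control shRNA replicate 4 correlated least with its group over all genes, with a mean r of 0.9967 against 0.9978 to 0.9980 for the other control arrays, so member results are also given without it. Of 9 epithelial and biliary markers, 8 lay above the 75th percentile of genes by level, while 0 of 6 endothelial and 0 of 4 leukocyte markers lay above the median. The summed log2 value of the epithelial markers was 112.9 to 113.2 on YAP shRNA arrays and 111.1 to 111.7 on control shRNA arrays, with 4 of the 9 called higher. These were KRT19, CDH1, SOX4 and CFTR, and CFTR, below the median level, rose most, by 1.07 log2. KRT7, KRT8, KRT18 and SOX9 gave -0.08 to -0.05 and EPCAM gave 0.01, none of them called. The 4 leukocyte markers summed to 20.2 to 20.8 on YAP shRNA arrays and 19.0 to 19.8 on control shRNA arrays, with 2 called higher and 1 lower, and the CD45 gene PTPRC averaged only 3.74 and 3.96. Of 6 hepatocyte and 6 fibroblast markers, 1 each was called higher, SERPINA1 and COL1A1. These were also the only markers of those lists above the median level, with SERPINA1 above the 75th percentile. The part of these shifts in the results below was not tested, and in bulk RNA fewer expressing cells and less RNA per cell cannot be told apart.

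With the YAP shRNA, SPRY1, SPRY4, DUSP4, DUSP5 and DUSP10 were higher and SPRED1 and DUSP1 lower, while SPRY2, SPRED2 and DUSP6 did not pass the test. SPRY1 rose most, 1.61-fold, and DUSP1 fell most, 1.56-fold. The other 5 changes were smaller, between 1.13-fold and 1.29-fold. In all, 7 of the 10 genes were called changed at a limma adjusted p below 0.05, where 16.7% of all genes were called and 26.6% of the 9887 genes above the median level, to which all 10 belong. The 5 rises stand beside a share of 9.49% of all genes called higher, and the 2 falls beside 7.17% called lower. For those same 7 genes the 4 YAP shRNA arrays did not overlap the 4 control shRNA arrays, as held for 24.3% of all genes. The median log2 fold change of the 10 genes was 0.11 and that of all genes 0.01, and the median size, without regard to sign, was 0.20 and 0.09. Without control shRNA replicate 4 the count of called members was 7 again, 5 higher and 2 lower.

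**Figure D1:**
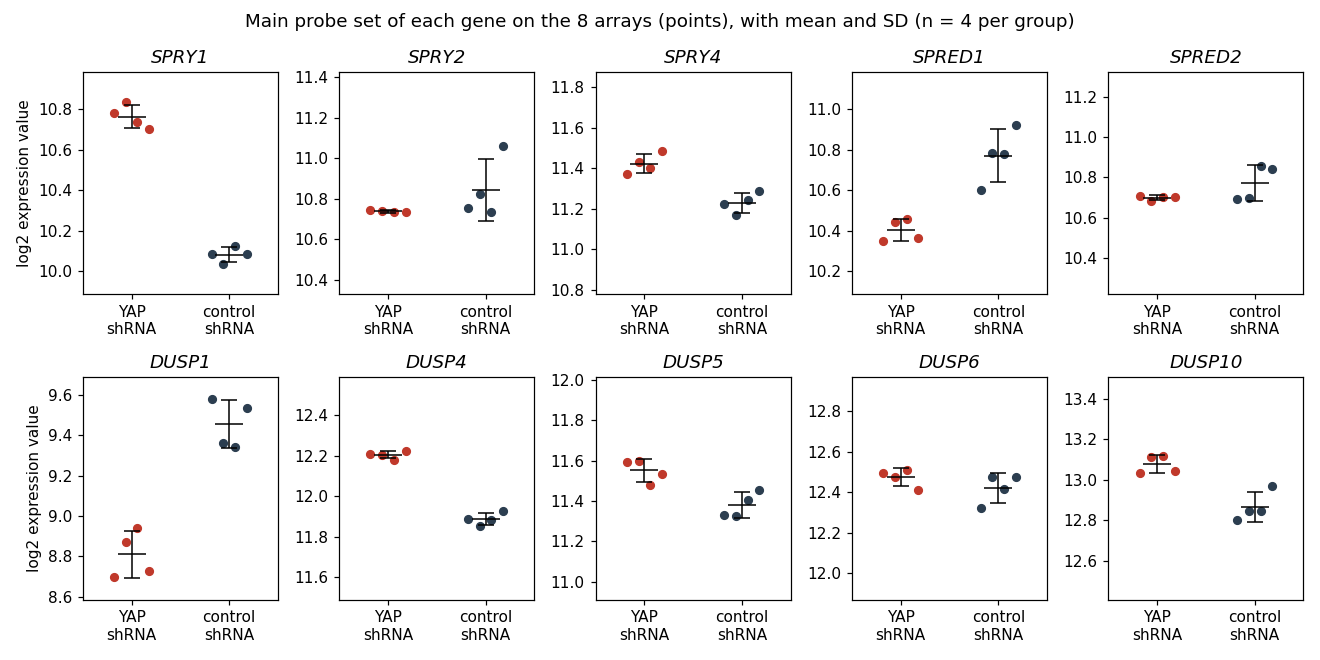
Log2 expression values of the main probe set of each of the 10 genes on the 4 YAP shRNA arrays (red, left) and the 4 control shRNA arrays (dark, right), with mean and SD as bars; every panel spans 1.1 log2 units. The groups lie apart for SPRY1, SPRY4, SPRED1, DUSP1, DUSP4, DUSP5 and DUSP10 and overlap for SPRY2, SPRED2 and DUSP6.

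Among the Sprouty genes, SPRY1 and SPRY4 rose and SPRY2 did not pass. SPRY1 encodes a membrane-associated antagonist of receptor tyrosine kinase signalling best known for holding back GDNF and FGF signals in the developing mouse kidney. It read 10.78, 10.84, 10.74 and 10.70 on the YAP shRNA arrays, against 10.08, 10.03, 10.12 and 10.09 on the control shRNA arrays. The lowest YAP shRNA array lay more than 0.5 above the highest control array, a gap wider than the range within either group. The group means were 10.76 ± 0.0578 with the YAP shRNA and 10.08 ± 0.0372 with the control shRNA (SD, n = 4 each), a log2 fold change of 0.68 ± 0.0428 (standard error, limma adjusted p = 3.70e-05). A dimmer SPRY1 probe set, averaging 5.02 with the YAP shRNA and 5.01 with the control shRNA, differed by 0.01 (limma adjusted p over all single-symbol probe sets = 0.976). That probe set lies below the lower quartile of gene levels, 5.15, so the rise was seen on 1 probe set. The mean of both probe sets gave 0.35 and was still called.

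SPRY4, an inhibitor of RAS activation that ERK signalling induces in many cell types, read 11.37, 11.43, 11.40 and 11.48 on YAP shRNA arrays, against 11.22, 11.17, 11.24 and 11.29 on control shRNA arrays. Every YAP shRNA array was above every control array, by a margin of less than 0.1 at the closest. Its log2 difference came to 0.19 ± 0.0426 (standard error, limma adjusted p = 0.0155), and the annotation gives it a single probe set. SPRY2, whose product binds the ubiquitin ligase CBL after phosphorylation, read 10.74, 10.74, 10.73 and 10.73 on YAP shRNA arrays, against 10.75, 10.82, 10.73 and 11.06 on control shRNA arrays. The groups overlapped, and the highest value was that of control shRNA replicate 4. The log2 fold change of SPRY2 was -0.11, with a 95% interval from -0.27 to 0.06 (limma adjusted p = 0.381), and -0.03 without control shRNA replicate 4. Exact ties between arrays occurred in 23.8% of probe sets and in 2 members, SPRY2 and DUSP6. On the YAP shRNA arrays 2 of the SPRY2 values were tied, those of replicates 3 and 4, and control shRNA replicate 3 held the same value. All 4 YAP shRNA values lay close together, with an SD of 0.00528, and the part of the tie in that small SD was not tested.

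The Sprouty genes differed in their response. Taking the log2 difference between a pair of genes on each array, SPRY1 moved up relative to SPRY2 by 0.79 and relative to SPRY4 by 0.49, and SPRY2 changed by -0.30 relative to SPRY4. In each of these 3 pairs the groups did not overlap, and the two-sided exact permutation p was 0.0286, the smallest that 4 arrays against 4 allow (Benjamini-Hochberg adjusted p = 0.0321 over the 9 pairs compared in all). Such a difference shows unequal change and not which gene has the higher level. With probe sets averaged per gene in place of the brightest, the SPRY1 and SPRY4 pair no longer passed, at 0.15 (exact permutation p = 0.0571).

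The promoters of the 2 Sprouty genes that rose are shown from 250 bases before to 50 bases after the annotated start, from RefSeq on GRCh38.p14. They were searched on both strands for GGAATG (the core of TEAD sites, through which YAP reaches DNA), TGANTCA (AP-1), TGACGTCA (the cAMP response element, CRE) and CCGGAAG (ETS factors, among the nuclear targets of ERK), with matches in capitals. None of these motifs overlaps another in the windows shown.
SPRY1 (chr4:123396545-123396844, plus strand): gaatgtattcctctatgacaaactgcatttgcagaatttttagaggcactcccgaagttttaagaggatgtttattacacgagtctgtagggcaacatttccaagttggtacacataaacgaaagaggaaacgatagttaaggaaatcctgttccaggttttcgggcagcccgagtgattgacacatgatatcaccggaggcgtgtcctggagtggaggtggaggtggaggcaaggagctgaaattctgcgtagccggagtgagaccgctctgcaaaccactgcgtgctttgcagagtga
SPRY4 (chr5:142324198-142324497, minus strand): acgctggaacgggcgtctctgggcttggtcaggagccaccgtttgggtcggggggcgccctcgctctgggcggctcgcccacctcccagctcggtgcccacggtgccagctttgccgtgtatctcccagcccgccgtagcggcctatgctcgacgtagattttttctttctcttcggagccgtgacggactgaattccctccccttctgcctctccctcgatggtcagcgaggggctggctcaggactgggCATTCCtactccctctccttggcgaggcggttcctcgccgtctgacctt
The SPRY1 window held no match, and SPRY4 held CATTCC, the reverse complement of the TEAD core, just after the start. Of 27305 promoters of this length that were searched, 14.05% hold the TEAD core, 7.76% the AP-1 motif, 1.98% the CRE and 10.67% the ETS motif. Promoters of 8 members were searched, those of DUSP4 and DUSP5 not being used here, and the TEAD core was in 1 of them, the CRE in 1 and the AP-1 and ETS motifs in 0. A match describes the letters only, and no match describes only this window.

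Of the SPRED genes, SPRED1 fell and SPRED2 did not pass. SPRED1, whose loss in people causes Legius syndrome, a disorder of excess RAS signalling, read 10.35, 10.44, 10.46 and 10.36 on YAP shRNA arrays, against 10.60, 10.78, 10.78 and 10.92 on control shRNA arrays. All YAP shRNA arrays were below all control arrays, and the control arrays were the more scattered. The means were 10.40 ± 0.0556 with the YAP shRNA and 10.77 ± 0.133 with the control shRNA (SD, n = 4 each). The difference between the groups came to -0.37 ± 0.0682 (standard error, limma adjusted p = 0.00701). The other SPRED1 probe sets gave -0.26 and -0.21, both past the test over all single-symbol probe sets (limma adjusted p = 0.0341 and 0.0473). Without control shRNA replicate 4, the highest array, SPRED1 stood at -0.32 (limma adjusted p = 0.00843).

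SPRED2, the close relative of SPRED1, read 10.71, 10.68, 10.70 and 10.70 on YAP shRNA arrays, against 10.69, 10.70, 10.86 and 10.84 on control shRNA arrays. Control replicates 1 and 2 lay among the YAP shRNA arrays and control replicates 3 and 4 above them. Its log2 fold change was -0.07 with a 95% interval from -0.19 to 0.04 (limma adjusted p = 0.379), and its other probe sets gave 0.02 and -0.11. Relative to SPRED2, SPRED1 changed by -0.29 on the log2 scale, with no overlap between groups (two-sided exact permutation p = 0.0286).

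DUSP1, the immediate early phosphatase of p38, JNK and ERK that stress and growth factors induce within minutes, fell. It read 8.70, 8.87, 8.94 and 8.73 on YAP shRNA arrays, against 9.58, 9.36, 9.34 and 9.53 on control shRNA arrays. The gap between the groups was wider than the range within either. The means were 8.81 ± 0.115 with the YAP shRNA and 9.45 ± 0.119 with the control shRNA (SD, n = 4 each), and the log2 difference came to -0.64 ± 0.0765 (standard error, limma adjusted p = 0.000753). The other DUSP1 probe sets were dimmer and gave -0.26 (limma adjusted p over all single-symbol probe sets = 0.0573) and 0.00 (0.981). The mean of the 3 probe sets gave -0.30 and was called. All 3 are of the kinds that carry the suffix _s_at or _x_at, which mark probes shared between transcripts or prone to cross-hybridisation, so DUSP1 could not be read on any other probe set.

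DUSP1 held the 1 CRE match among the promoters searched, shown in capitals in its RefSeq promoter on GRCh38.p14.
DUSP1 (chr5:172771146-172771445, minus strand): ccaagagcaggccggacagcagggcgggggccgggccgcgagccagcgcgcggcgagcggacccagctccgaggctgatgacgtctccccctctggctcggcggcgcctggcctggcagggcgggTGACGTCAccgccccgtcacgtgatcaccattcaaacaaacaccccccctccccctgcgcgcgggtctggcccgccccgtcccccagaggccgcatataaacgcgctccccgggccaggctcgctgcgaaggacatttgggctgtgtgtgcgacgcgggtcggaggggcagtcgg
The match begins at position -125, counted from the start,, and cAMP response elements in this promoter are a textbook route for the gene's rapid induction. Binding at the site was not measured here.

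DUSP4, a nuclear phosphatase induced by ERK, moved the other way. It read 12.21, 12.21, 12.18 and 12.22 on YAP shRNA arrays, against 11.89, 11.86, 11.88 and 11.93 on control shRNA arrays. The groups were well apart, and both were tight. The means were 12.21 ± 0.0178 with the YAP shRNA and 11.89 ± 0.0297 with the control shRNA (SD, n = 4 each), a log2 difference of 0.32 ± 0.0347 (standard error, limma adjusted p = 0.000479). Its other probe sets gave 0.41 and 0.26, and all 3 passed over all single-symbol probe sets. DUSP4 lies on chromosome 8, where the median log2 fold change over 716 genes was 0.07, the highest of any chromosome. The part of that shift in the rise of DUSP4 was not tested. The chromosome medians of the other members ran from -0.03 to 0.02.

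DUSP5, a nuclear phosphatase specific for ERK, read 11.59, 11.60, 11.48 and 11.54 on YAP shRNA arrays, against 11.33, 11.33, 11.40 and 11.46 on control shRNA arrays. The groups did not overlap, but only 0.02 separated the lowest YAP shRNA array from the highest control array. Its log2 difference came to 0.17 ± 0.0474 (standard error, limma adjusted p = 0.0395). This call was the least firm: it held in 2 of the 8 fits that left out 1 array, with log2 fold changes from 0.15 to 0.20. It was lost with median centring (limma adjusted p = 0.0559) and over all single-symbol probe sets (limma adjusted p = 0.0576). The call was also lost once probe sets with the suffix _s_at or _x_at were left out (limma adjusted p = 0.0554). It was kept without control shRNA replicate 4 (limma adjusted p = 0.0190).

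DUSP6, the cytoplasmic ERK phosphatase often used as a marker of ERK activity, read 12.50, 12.47, 12.51 and 12.41 on YAP shRNA arrays, against 12.32, 12.47, 12.42 and 12.47 on control shRNA arrays. The groups overlapped. The log2 fold change was 0.05 with a 95% interval from -0.06 to 0.16 (limma adjusted p = 0.538). Its probe sets did not move alike: another gave 0.01, while the remaining probe set, averaging 11.59 with the YAP shRNA and 11.38 with the control shRNA, gave 0.22 and passed over all single-symbol probe sets (limma adjusted p = 0.0243).

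DUSP10, a phosphatase that prefers p38 and JNK, read 13.03, 13.11, 13.12 and 13.05 on YAP shRNA arrays, against 12.80, 12.85, 12.85 and 12.97 on control shRNA arrays. All YAP shRNA arrays were above all control arrays. Its log2 difference came to 0.21 ± 0.0476 (standard error, limma adjusted p = 0.0169), and its other probe set gave 0.34 and also passed. The call was lost without YAP shRNA replicate 2 or replicate 3 (limma adjusted p = 0.0560 and 0.0553).

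Within the phosphatases, DUSP1 changed by -0.96 relative to DUSP4, by -0.82 relative to DUSP5 and by -0.86 relative to DUSP10 on the log2 scale. In these 3 pairs, and in the pair of DUSP4 over DUSP5 at 0.15, the groups did not overlap (two-sided exact permutation p = 0.0286 each, adjusted p = 0.0321 over the 9 pairs). The pair of DUSP5 over DUSP6 gave 0.12 with overlapping groups (two-sided exact permutation p = 0.114). In all, 8 of the 9 pairs compared passed, each at the smallest p that the design allows. How often pairs of other genes would pass was not computed, and the pairs were chosen with earlier results of these data known.

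**Figure D2:**
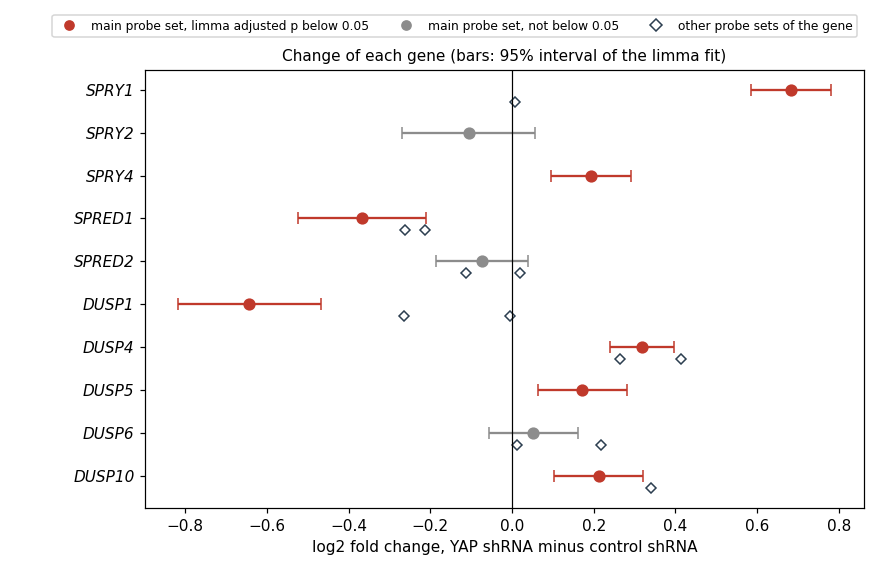
Log2 fold change, YAP shRNA minus control shRNA, of the main probe set of each gene (circles, red where the limma adjusted p was below 0.05) with its 95% interval, and of its other probe sets (open diamonds). SPRY1 at 0.68 and DUSP1 at -0.64 mark the ends, and the dim SPRY1 probe set and a DUSP1 probe set lie near 0.

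The spread within groups was not equal. In 9 of the 10 genes the SD was larger on control shRNA arrays than on YAP shRNA arrays, as in 67.1% of all genes. Control shRNA replicate 4 was the highest control array in 6 of the 10, against 40.2% of all genes. Without it the log2 fold change of SPRY2 was -0.03 in place of -0.11 and that of DUSP10 0.25 in place of 0.21, and leaving it out changed the call of none of the 10 genes.

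None of the 7 other genes listed for these families was called by limma on its main probe set over all genes. Of those 7, only DUSP7 and DUSP16 lay above the median level of genes, whereas all of the 10 did. Of 7 Sprouty and SPRED genes, 2 rose and 1 fell, or 42.9%, with a median log2 fold change of -0.07. SPRY3 and SPRED3, the family members not among the 10, gave 0.17 and -0.09 and did not pass (limma adjusted p = 0.333 and 0.552). Of 10 MAPK phosphatase genes, 3 rose and 1 fell, or 40%, with a median of -0.01. Among all genes 16.7% were called, and 26.6% of those above the median level. The phosphatase genes outside the 10, DUSP2, DUSP7, DUSP8, DUSP9 and DUSP16, gave between -0.10 and -0.01, and none was called in that fit. DUSP7 had groups that did not overlap at -0.09 (limma adjusted p = 0.137). With the lowest 50% of genes by level left out, 2 phosphatase genes were called lower, DUSP1 and 1 outside the 10. The same counts held with probe sets averaged per gene.

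Another 22 measured genes, all outside the 10, were listed together as outputs of ERK-driven transcription. They included the transcription factor genes ELK1, ELK3 and ERF, and induction by ERK was not tested for any listed gene. Of these 22 genes, 1 rose and 1 fell, or 9.09%. That share stands beside 16.7% of all genes and 26.6% of genes above the median level. All listed outputs but EGR3, FOS and FOSB lay above that level. Their median log2 fold change was 0.02, against 0.01 for all genes. JUNB, an AP-1 subunit, rose by 0.23 (limma adjusted p = 0.0449) and IER3, an early response gene, fell by 0.24 (limma adjusted p = 0.00480). The call on JUNB held in 1 of the 8 fits that left out an array, and that on IER3 in all 8. PHLDA1, CCND1, EPHA2, ETV4, ETV5, EGR1 and FOSL1, often read beside DUSP6 and SPRY4, gave values between -0.08 and 0.07. None of these 7 passed. The widest changes in the list, FOS at -0.27 and MYC at 0.26, did not pass either (limma adjusted p = 0.169 and 0.0888).

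Of 15 measured genes of the RAS to ERK route, 3 rose and 1 fell, or 26.7%, with a median of 0.03. That share stands beside 16.7% of all genes, and is close to the 26.6% called among all genes above the median level. The RAS exchange factor gene SOS1 and the adaptor gene SHC1 rose by 0.23 and 0.22, RPS6KA1, an ERK-activated kinase, rose by 0.21, and MAPK3, which encodes the kinase ERK1, fell by 0.23 (limma adjusted p = 0.0174, 0.0176, 0.0453 and 0.0206). With probe sets averaged per gene, SOS1 stood at 0.01 and SHC1 at 0.12, neither called. Each of these 4 calls was lost in at least 1 of the fits that left out an array.

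Of 18 other feedback regulators, 2 rose and 4 fell, or 33.3%, with a median of -0.02. The shares called were 16.7% of all genes and 26.6% of those above the median level. LRIG1, a transmembrane protein that promotes the breakdown of ErbB receptors, fell by 0.71 (limma adjusted p = 0.000274), although the mean of its probe sets gave -0.18 and was not called. IL17RD, a membrane antagonist of FGF signalling also called SEF, rose by 0.28 (limma adjusted p = 0.0115), and the mean of its probe sets gave 0.11 and was not called. CBL, the ubiquitin ligase that SPRY2 binds, fell by 0.21, and TESK1, a kinase that binds Sprouty proteins, fell by 0.16 (limma adjusted p = 0.0417 and 0.0429). LGALS3, which encodes galectin-3, rose by 0.14 (limma adjusted p = 0.0469), but gave -0.14 once probe sets with the suffix _s_at or _x_at were left out. The calls on CBL, TESK1 and LGALS3 held in 1, 2 and 1 of the 8 fits without an array. ERRFI1, an inhibitor of EGFR, gave -0.03 and was not called (limma adjusted p = 0.730).

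Of 14 genes of the p38 and JNK routes, which DUSP1 and DUSP10 switch off, 3 rose and 2 fell, or 35.7%, with a median of 0.01. For comparison, 16.7% of all genes and 26.6% of those above the median level were called. MAP2K6, an activator of p38, rose by 0.78 from a dim probe set, averaging 5.87 with the YAP shRNA and 5.09 with the control shRNA (limma adjusted p = 0.00119), but gave -0.0573 without probe sets carrying the suffix _s_at or _x_at. MAPK13, the p38 delta kinase gene, rose by 0.28 (limma adjusted p = 0.00173) and MAP3K5, which encodes ASK1, rose by 0.23 (limma adjusted p = 0.0337). The call on MAP3K5 held in 3 of the 8 fits without an array and was lost with probe sets averaged per gene (limma adjusted p = 0.0925), and MAP2K6 stood at 0.36 when averaged. JUN, the AP-1 subunit that JNK phosphorylates, fell by 0.31 (limma adjusted p = 0.000936), and MAP2K4, an activator of JNK, fell by 0.24 (limma adjusted p = 0.00849).

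Receptor genes upstream of these inhibitors moved in both directions. Of 15 receptor tyrosine kinase genes, 3 rose and 2 fell, or 33.3%, with a median of 0.01. Beside this stand 16.7% of all genes called and 26.6% of those above the median level. ERBB3 rose by 0.86 (limma adjusted p = 0.000200), FGFR3 by 0.34 and IGF1R by 0.20, while FGFR1 fell by 0.63 (limma adjusted p = 0.000109) and AXL by 0.28. FGFR1 lies on chromosome 8. The calls on ERBB3, FGFR1 and AXL held in all 8 fits without an array, and those on FGFR3 and IGF1R in 4 and 1. With probe sets averaged per gene, ERBB3 stood at 0.44, FGFR1 at -0.24 and AXL at -0.45, all still called, while FGFR3 and IGF1R, both at 0.11, were not (limma adjusted p = 0.443 and 0.226). EGFR and MET gave -0.09 and -0.01 and did not pass (limma adjusted p = 0.346 and 0.896).

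**Figure D3:**
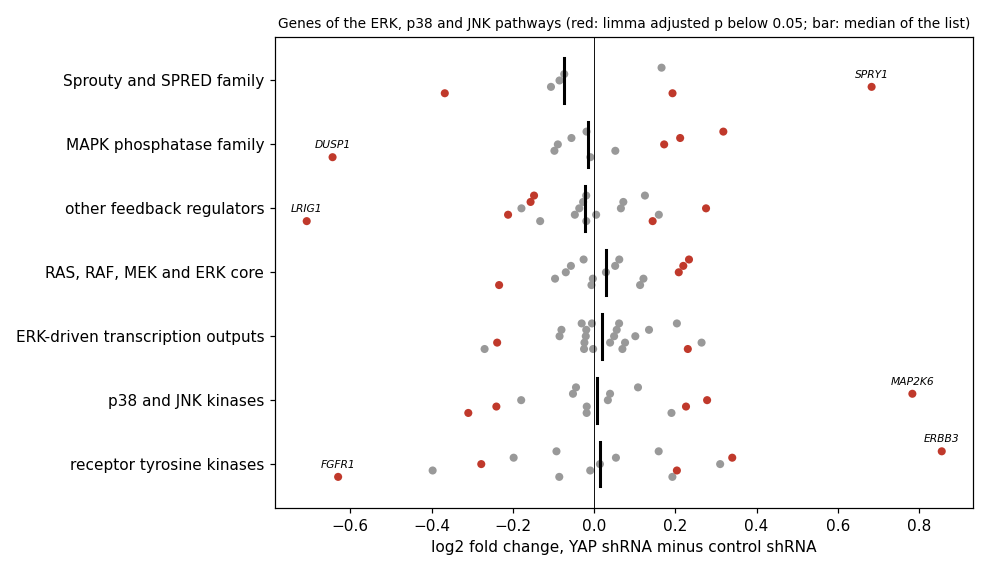
Log2 fold change, YAP shRNA minus control shRNA, of each measured gene in 7 lists of the ERK, p38 and JNK routes (points, red where the limma adjusted p was below 0.05), with the median of each list as a black bar. List medians lie between -0.07 and 0.03, with SPRY1, DUSP1, LRIG1, MAP2K6, ERBB3 and FGFR1 farthest out.

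The genes whose profile over the 8 arrays lay nearest to that of SPRY1 were PTCH1, ELFN2 and MANBA, with root-mean-square differences of 0.0373, 0.0399 and 0.0473 log2 units after each profile was centred on its own mean. Nearest to DUSP1 were GPR137C, SUSD4 and SNAI2, at 0.0521, 0.0525 and 0.0605. Both searches ran over all 19775 genes, and the likeness is dominated by the step between the groups.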

How the data were processed

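RNA of 8 HuCCT1 samples, 4 per group, was measured on Affymetrix HG-U133_Plus_2 arrays. Per the labels' protocols, total RNA was purified on columns, then amplified (NuGEN) and labelled with biotin. The authors deposited log2 values for each probe set, the base being inferred from the range, 1.72 to 14.9. How background, summarisation and normalization were handled is not given in the sources used here. No further normalization was applied, as array medians ranged over less than 0.5, and no 2 arrays were identical. No detection call was used, and the number of arrays limits the precision.

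Of 54675 probe sets, 41097 have 1 symbol in GEO's platform annotation, 1801 several and 11777 none listed. Through Entrez IDs, 41043 matched RefSeq genes of GRCh38.p14, used for names and chromosomes. The fit was limma 3.58.1 (R 4.3.3), YAP shRNA minus control shRNA, with Benjamini-Hochberg adjustment over all 19775 genes and no block. Probe sets beyond the main one were fitted over all single-symbol probe sets. Pairs of members were compared by exact permutation. The fit was tested on simulated data. Figures used matplotlib 3.10.9. The members, lists, pairs and motifs were chosen with earlier results of these data known. All members are named, as are, per list, up to 3 called genes in each direction with the largest change, and the 3 nearest profiles of SPRY1 and DUSP1; uncalled genes given as examples were chosen after their values were seen. Some genes of the lists are not analysed here. Alternatives were quantile normalization, median centring, 2 filters on dim genes, other choices of probe set, trended robust moderation, weighted arrays, a replicate block, stricter and looser thresholds, and the removal of single arrays.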

Additional observations from a re-analysis of the deposited data

Results flagged for a closer look

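In groups of 4 arrays, 76 sets of values from 38 genes named above were searched for 1 array far from the other 3, and 5 were found, where chance gives about 3.8. None was a value of the 10 inhibitor genes. YAP1 was high in control shRNA replicate 3, at 12.77, with the other control arrays at 12.59 to 12.61. JUNB was high in YAP shRNA replicate 4, at 10.42, with the others at 10.27 to 10.29. CBL was high in YAP shRNA replicate 1, at 10.92 (10.82 to 10.83 in the others), and low in control shRNA replicate 1, at 10.90 (11.10 to 11.14 in the others). MAP2K6 was low in control shRNA replicate 3, at 4.78 (5.17 to 5.23 in the others).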

How the results depend on the processing

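SPRY1, SPRED1, DUSP1 and DUSP4 kept their direction and their call under every alternative that could be run on them, with log2 fold changes of 0.35 to 0.70, -0.42 to -0.28, -0.69 to -0.30 and 0.31 to 0.33. SPRY2, SPRED2 and DUSP6 were called under none. The labels do not say whether the replicate numbers pair the samples. Deviations of same-numbered arrays correlated at -0.21 to 0.00, which shows no shared shift but cannot settle whether they were paired. With the replicate block, 4 members, 2106 genes and 15 list genes were called, and the calls on SPRY4, DUSP5 and DUSP10 were lost. At an adjusted p below 0.01, 4 members and 1785 genes were called. Without probe sets with the suffix _s_at or _x_at, SPRY4 and DUSP1 could not be read, 4 of 8 members and 11 list genes were called, and LGALS3 and MAP2K6 turned to -0.14 and -0.0573. Leaving out 1 array at a time gave 5 to 7 members, 2381 to 3881 genes and 16 to 26 list genes called, the lowest of the last without YAP shRNA replicate 2. Of the 9 pairs, 8 passed, as did all 4 that could be read without those suffixes (DUSP5 over DUSP6 among them, at 0.16), 7 to 9 without 1 array (a check chosen after seeing the data), and 0 with the replicate block, where 4 numbered pairs allow no p below 0.125.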
